A study of Homo sapiens with 4 samples.

Results

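The genes described here are 10 regulators of the pluripotent state, measured in H9, a long-established line of human embryonic stem cells. They were chosen by name: the transcription factors POU5F1, SOX2, NANOG, PRDM14 and SALL4, the RNA-binding proteins LIN28A, LIN28B and L1TD1, and the nuclear proteins DPPA2 and DPPA4. All 10 names occurred on a single row each among the 60671 genes of the deposited table. Poly(A)+ RNA had been sequenced in 4 libraries, 2 of control H9 cells, which the study describes as mock-edited, and 2 of cells labelled CFIm25 KO with 3Flag-CFIm25 overexpression, called KO+OE here. All 4 cultures were kept in mTeSR medium and received no treatment.

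NUDT21 encodes CFIm25, the small subunit of the complex CFIm, which takes part in choosing where the 3′ ends of transcripts are cleaved and polyadenylated. The title of the series calls the edit a knockdown where the sample labels call it a knockout, and the study describes edited clones that kept a small amount of CFIm25 shortened at its N-terminus. The re-expressing cells were derived from a single edited clone, and the tagged cDNA was carried by a lentiviral vector with an EF1 promoter. The labels do not say that the 2 libraries of a group came from separate cultures, so the p-values below measure only the spread between these libraries. The question was whether the levels of the regulators differed between KO+OE and control, and how the regulators stood to each other. The series holds no library of edited cells without re-expression. The comparison therefore does not show the effect of the edit alone, and edit, re-expression and clone cannot be told apart.

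POU5F1 (OCT4), SOX2 and NANOG form the core of the pluripotency network. They bind together at many enhancers, including their own, and hold genes of the undifferentiated state on while genes of the germ layers stay off. PRDM14 and SALL4 are zinc finger factors that act on the same genes with chromatin complexes. LIN28A and LIN28B bind precursors of the microRNA let-7 and block its maturation. L1TD1 derives from a LINE-1 element and binds RNA, and DPPA2 and DPPA4 act as a pair on promoters of developmental genes.

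The values were TPM, in which the reads of a gene are divided by transcript length and scaled to a common total. Levels of different genes can thus be set side by side, with a limit. Over 12147 genes, mean level still went with GC content and transcript length (Spearman's rho 0.275 and -0.192). Ratios between genes were not corrected for this. The libraries summed to between 986853 and 987078 TPM, and mitochondrial genes took 21.0% to 22.1% of them. TPM carries no read counts, so the depth is unknown and the errors come from the replicates. NUDT21, the edited gene, was 160.67 and 152.20 TPM (control) against 162.09 and 156.60 TPM (KO+OE). Reads of the transgene and of the gene itself were not separated. The log2 fold change of NUDT21 was 0.03 (95% CI -0.09 to 0.14, limma adjusted p = 0.980), and its sign turned to -0.012 without control replicate 2. A difference in level cannot be told apart, in RNA from whole cultures, from a difference in the number of cells that express the gene.

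The 10 regulators spanned a wide range of levels that was nearly the same in every library. POU5F1 stood at the top with a mean of 2189 TPM, and LIN28B at the bottom with 0.963 TPM, a 2274-fold span. Together the 10 genes took 2890 to 2925 TPM per library. POU5F1 alone took 74.9% to 75.6% of that sum and LIN28A 17.7% to 18.3%, with DPPA4 at 3.23% to 3.39%. The remaining 7 genes shared the rest.

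**Figure D1:**
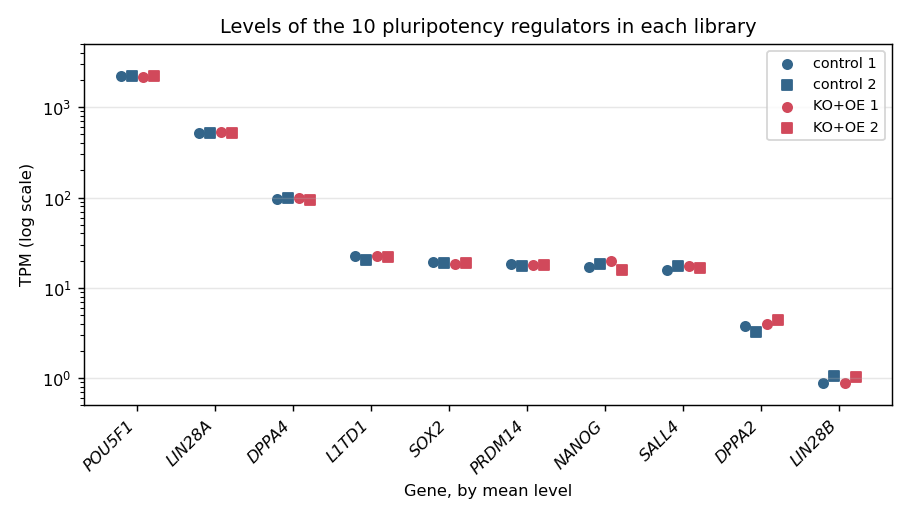
TPM of the 10 genes in each library on a log axis, ordered by mean level; blue marks control and red KO+OE, circles replicate 1 and squares replicate 2. The points of a gene lie close together, from 2189 TPM for the mean of POU5F1 to 0.963 TPM for LIN28B, and the 5 genes from L1TD1 to SALL4 all lie between 15.85 and 22.64 TPM.

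The order of the means was POU5F1, LIN28A, DPPA4, L1TD1, SOX2, PRDM14, NANOG, SALL4, DPPA2 and LIN28B. Each of the first 3 exceeded the next gene by 4.19-fold, 5.39-fold and 4.44-fold. From L1TD1 to SALL4 the levels formed a narrow shelf. The ranges of the 4 libraries overlapped between SOX2 and PRDM14, between PRDM14 and NANOG and between NANOG and SALL4. Ranges alone did not set those neighbours in order. Within a library, SOX2 was above PRDM14 in 4 of 4, PRDM14 above NANOG in 2 of 4 and NANOG above SALL4 in 3 of 4. L1TD1 was above SOX2 in all 4, and SALL4 was above DPPA2 by 4.37-fold.

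POU5F1 (ENSG00000204531), the POU domain factor of the core, lies at chr6:31164337-31170682 in GRCh38.p14. It was 2212.38 and 2185.22 TPM (control) against 2163.82 and 2194.62 TPM (KO+OE). The groups overlapped, and the highest library exceeded the lowest by 1.02-fold. POU5F1 ranked 82nd by mean level among the 12319 genes that averaged 1 TPM or more.

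SOX2 (ENSG00000181449), the HMG box partner of POU5F1, lies at chr3:181711925-181714436. It was 19.36 and 18.68 TPM (control) against 18.19 and 18.72 TPM (KO+OE). The groups overlapped by the narrow margin between 18.68 and 18.72 TPM. Within each library POU5F1 was 114 to 119 times as high as SOX2. The genes nearest to SOX2 in level over the 4 libraries were ZC3HC1 and GLYR1, with mean absolute differences of 0.015 and 0.018 in log2(TPM + 1).

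NANOG (ENSG00000111704), the homeodomain factor, lies at chr12:7789402-7799146. It was 16.85 and 18.61 TPM (control) against 19.89 and 15.85 TPM (KO+OE). Both the highest and the lowest value belonged to KO+OE, so that the control libraries lay between them. NANOG varied the most among the 5 factors, with a coefficient of variation of 10.1% over the 4 libraries against 0.924% for POU5F1. Its nearest genes in level were BAIAP2 and SYT7, at 0.042 and 0.046.

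The promoters of NANOG and SOX2 are shown because letters that SOX and POU factors are known to bind lie in them. RefSeq windows of 300 bases, from 250 before to 50 after the start of a gene, were found for 6 of the 10 genes (SOX2, NANOG, LIN28B, L1TD1, DPPA2 and DPPA4). They were searched on both strands for a composite of a SOX and a POU site (CATTGT, 1 base of any kind, then ATGCAAA) and for its POU part alone. The match is printed in capitals, on the strand of the gene.
NANOG, chr12:7789274-7789303, plus strand: cagctactTTTGCATTACAATGgccttggt
SOX2, chr3:181711814-181711843, plus strand: cgccccctttcATGCAAAacccggcagcga
The NANOG match is the reverse complement of the composite and begins 120 bases before the start of the gene. The composite occurred in 0.00854% of all 35116 windows, 3 in number. The shorter POU letters occurred in 4.46% of windows, and among the 6 genes in NANOG, where they are part of the composite, and SOX2, where they begin 100 bases before the start. These matches describe the sequence and were not measured as binding.

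PRDM14 (ENSG00000147596), a zinc finger factor that keeps human embryonic stem cells undifferentiated, lies at chr8:70051651-70071252. It was 18.34 and 17.54 TPM (control) against 18.04 and 17.90 TPM (KO+OE). Both KO+OE values fell inside the control range. SALL4 (ENSG00000101115), a zinc finger factor that recruits the NuRD complex, lies at chr20:51782331-51802521. It was 15.88 and 17.53 TPM (control) against 17.38 and 16.43 TPM (KO+OE), again inside the control range.

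LIN28A (ENSG00000131914) lies at chr1:26410817-26429728 and was the second highest of the 10. It was 517.40 and 520.54 TPM (control) against 527.87 and 523.49 TPM (KO+OE). Both KO+OE libraries were above both controls, by little: the group means were 519 ± 2.22 and 526 ± 3.10 TPM (SD, n = 2 each). LIN28B (ENSG00000187772) lies at chr6:104937026-105083332. It was 0.88 and 1.05 TPM (control) against 0.89 and 1.03 TPM (KO+OE), and its mean put it below the filter of 1 TPM. LIN28A was thus 496 to 593 times as high as LIN28B within a library. L1TD1 (ENSG00000240563), at chr1:62194849-62212328, was 22.64 and 20.40 TPM (control) against 22.34 and 21.83 TPM (KO+OE), within the control range.

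The let-7 family, whose precursors the LIN28 proteins bind, is shown here by its mature sequence. The LIN28 genes and let-7 are known to hold each other down. The mature strands of 9 let-7 family members in RefSeq share bases 2 to 8, the seed, which are in capitals.
hsa-let-7a-5p, at 1 of its loci, chr9:94175962-94175983, plus strand: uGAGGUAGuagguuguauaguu
hsa-miR-98-5p, chrX:53556299-53556320, minus strand: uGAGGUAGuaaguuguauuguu
The complement of the seed, CTACCTC, was searched in the canonical transcripts of GENCODE release 44 (the set lifted to GRCh37) on the sense strand. LIN28B held 5 matches, 4 of them after the coding part, in a transcript of 5446 bases. LIN28A held 1 after the coding part in 3975 bases. The matches are in capitals below.
LIN28A, transcript bases 1610 to 1616: cagcctattgaaCTACCTCatttt
LIN28B, transcript bases 941 to 947: cggttgcaaagtCTACCTCatgca
LIN28B, transcript bases 3550 to 3556: tacagcaaaaggCTACCTCatagt
Of the 10 genes, 4 held a match, the others being SALL4 with 3 and L1TD1 with 1. A match occurred in 23.3% of the 10779 canonical coding transcripts of the genes tested, and 5 or more in 6 of them. LIN28B did not pass the filter of 1 TPM and is not among those transcripts. MicroRNAs were not measured in these libraries, and a match of letters is not a measured site.

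DPPA4 (ENSG00000121570) and DPPA2 (ENSG00000163530) are neighbours on chromosome 3, at chr3:109326144-109339636 and chr3:109293788-109316517, with 9626 bases between them. Both encode SAP domain proteins that act as a pair. DPPA4 was 97.25 and 98.41 TPM (control) against 97.75 and 93.94 TPM (KO+OE), and the groups overlapped. DPPA2 was 3.81 and 3.22 TPM (control) against 3.94 and 4.41 TPM (KO+OE), so that both KO+OE libraries were above both controls. DPPA4 was 21.3 to 30.6 times as high as DPPA2 within a library, although the genes lie side by side.

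KO+OE and control were then compared by limma over those 12319 genes, on the scale log2(TPM + 1). On this scale the change of a weakly expressed gene is understated. Of the 10 regulators, 9 passed the filter and LIN28B did not. None of the 9 was called at an adjusted p under 0.05 (Benjamini-Hochberg over all genes tested), where 0.00812% of all genes were called. At an unadjusted p under 0.05 the count was also 0, against 5.33% of all genes. The lowest adjusted p among the 9 was 0.942, for DPPA2.

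The differences were small, and for the high genes their intervals were narrow. POU5F1 had a log2 fold change of -0.01 with a 95% CI of -0.07 to 0.04, that is 0.952-fold to 1.03-fold. The sign of this value turned with the scaling, to 0.0076 with quantile normalization and 0.0015 when mitochondrial genes were left out of the total. LIN28A had 0.02 (CI -0.05 to 0.09), DPPA4 had -0.03 (CI -0.14 to 0.08) and SOX2 had -0.04 (CI -0.21 to 0.13). PRDM14 had 0.0026 (CI -0.17 to 0.18), SALL4 had 0.02 (CI -0.19 to 0.23) and L1TD1 had 0.04 (CI -0.16 to 0.23). NANOG had 0.0040 with a wider interval of -0.32 to 0.33. The values of PRDM14, SALL4, L1TD1 and NANOG turned sign when 1 library was left out, NANOG to -0.064 without control replicate 1 and -0.15 without KO+OE replicate 1. LIN28B, fitted without the filter, had -0.0032 (CI -0.45 to 0.44, limma adjusted p = 1). On the scale of TPM + 1, the interval lay within 1.5-fold in either direction for all 9 genes tested. It lay within 1.2-fold for 7, the exceptions being NANOG and DPPA2. In TPM itself the intervals are wider for weakly expressed genes such as DPPA2. Over all genes tested, 71.0% and 26.5% had intervals within 1.5-fold and 1.2-fold of TPM + 1. Those shares were not matched for level. The regulators tested other than DPPA2 lay above 66.0% (SALL4) to 99.3% (POU5F1) of the genes tested in level.

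**Figure D2:**
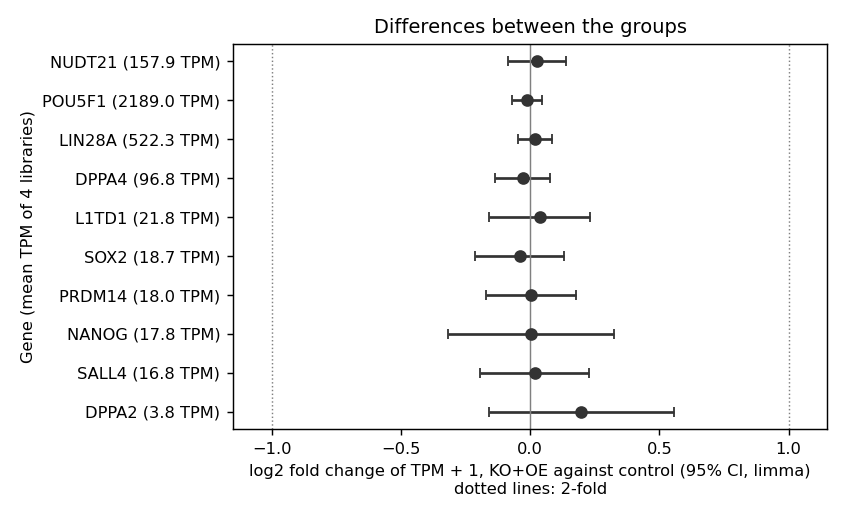
Log2 fold change of TPM + 1, KO+OE against control, for the 9 regulators tested and NUDT21, with limma's 95% confidence interval as bars and 2-fold as dotted lines; genes are ordered by mean level with NUDT21 on top. Every interval crosses 0 and none reaches 2-fold, and those of NANOG (-0.32 to 0.33) and DPPA2 (-0.16 to 0.56) are the widest.

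DPPA2 had the largest estimate of the 9, a log2 fold change of 0.20 with an interval of -0.16 to 0.56 (limma, adjusted p = 0.942). Its group means were 3.52 ± 0.417 TPM (control) against 4.18 ± 0.332 TPM (KO+OE) (SD, n = 2 each). Leaving out control replicate 1 gave 0.29, leaving out control replicate 2 gave 0.10, and a pseudocount of 5 gave 0.11. Groups without overlap were seen for 2 of the 10 genes, LIN28A and DPPA2, both with KO+OE higher, and for 0 with KO+OE lower. Over all genes tested, KO+OE lay above control without overlap for 14.5% and below for 19.6%, or 34.1% in either direction. With quantile normalization LIN28A no longer did, and the count was 1. The median log2 fold change of the 9 genes was 0.0040, beside -0.01 over all genes tested. It ran from -0.021 without control replicate 2 to 0.024 without KO+OE replicate 2.

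Ratios within a library do not depend on how it was scaled, apart from the pseudocount. On the scale of TPM + 1, the log2 ratio of POU5F1 to SOX2 was 6.78 in control and 6.81 in KO+OE, and that of POU5F1 to NANOG was 6.88 and 6.86 (means, n = 2 each). That of LIN28A to LIN28B was 8.05 and 8.07. The log2 ratio of DPPA4 to DPPA2 was 4.35 and 4.56 (control) against 4.32 and 4.13 (KO+OE), a difference of -0.23. In a two-sided exact permutation test over the 4 libraries, p was 0.333 for POU5F1 to SOX2 and for DPPA4 to DPPA2, 0.667 for LIN28A to LIN28B and 1 for POU5F1 to NANOG. The smallest p this design allows is 0.333. The difference for POU5F1 to NANOG was -0.017, and it turned to 0.060 without control replicate 1 and 0.15 without KO+OE replicate 1.

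Relatives of the regulators were compared with them as levels. Apart from SALL2, they were chosen for mention after their values had been seen. SOX3, a close relative of SOX2, was 52.00 to 57.34 TPM, 2.74 to 3.07 times as high as SOX2 in each library. SOX1, which marks neural ectoderm, was at most 0.06 TPM. Among the SALL factors, SALL2 was 225.12 to 233.05 TPM and so 13.1 to 14.2 times as high as SALL4, while SALL1 and SALL3 were lower than SALL4 in all 4 libraries, at 6.19 and 3.06 TPM on average. DPPA5 was 0.45 to 1.10 TPM and DPPA3 at most 0.15 TPM, far below DPPA4.

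**Figure D3:**
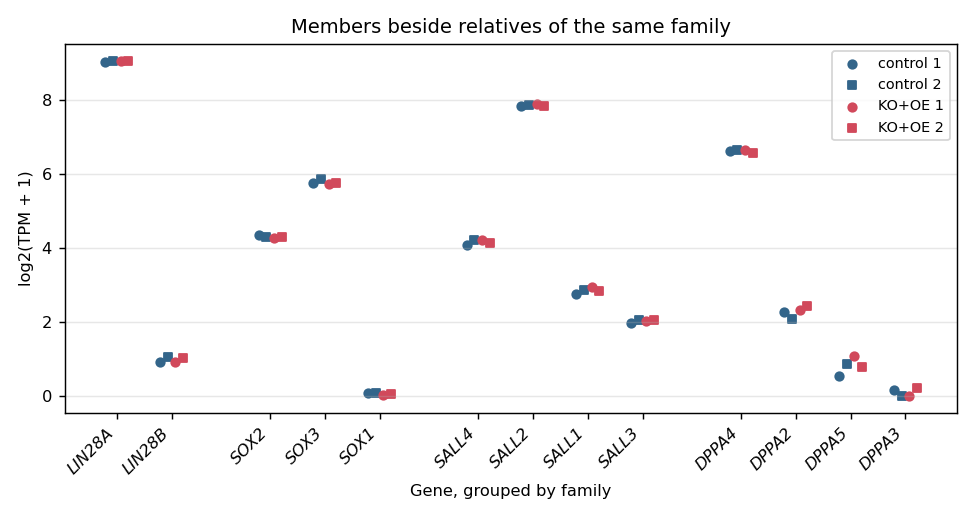
log2(TPM + 1) of the LIN28, SOX, SALL and DPPA genes in each library, grouped by family; colours and symbols are those of the level plot. SALL2 and SOX3 lie above SALL4 and SOX2, and LIN28A and DPPA4 lie far above LIN28B and DPPA2.

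NANOG has a near-identical copy that was listed at a level of its own. NANOGP8 (ENSG00000255192), at chr15:35083410-35085295, is a retrocopy, an mRNA of NANOG put back into the genome without introns. It was 7.98 and 8.34 TPM (control) against 7.27 and 8.62 TPM (KO+OE), or 26.8% to 35.2% of the sum of NANOG and NANOGP8. In KO+OE the library with the higher NANOG value had the lower NANOGP8 value, while in control the library with the higher NANOG value also had the higher NANOGP8 value. The sum of the genes was 24.83 and 26.95 TPM (control) against 27.16 and 24.47 TPM (KO+OE), and its highest library exceeded the lowest by 1.11-fold where NANOG alone gave 1.25-fold. The group means of the sum were 25.9 ± 1.5 and 25.8 ± 1.90 TPM (SD, n = 2 each). TPM divides each gene by its own length, so neither the sum nor the share measures how reads were divided.

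The canonical transcripts of the copies differ at few bases. NANOG (5182 bases) and NANOGP8 (1886 bases) aligned over 1886 columns with 1873 identical bases, 10 mismatches and 3 gap bases, an identity of 99.3%. The longest run of identical bases was 284, which is longer than one read of 150 bases. The aligned part was 36.3% of the NANOG transcript, and the last 3271 bases of NANOG had no counterpart in the copy. The coding part held 5 mismatches, and the first is printed in capitals. It is C47A, with NANOG first and positions counted from the A of the start codon.
NANOG: cttgctttgaagCatccgactgtaa
NANOGP8: cttgctttgaagAatccgactgtaa
The treatment of reads that fit both copies is not given in the sources used here, so how the reads were divided between NANOG and NANOGP8 is uncertain.

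**Figure D4:**
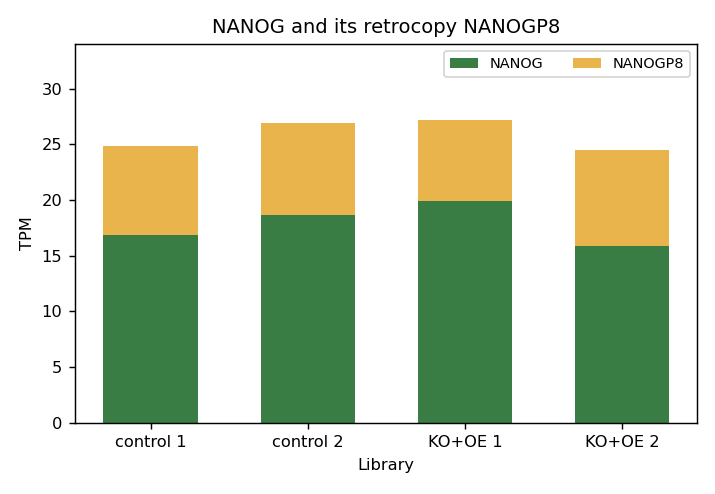
TPM of NANOG (green) with NANOGP8 (yellow) stacked on it, 1 bar per library. The total lies between 24.47 and 27.16 TPM in the 4 libraries, while NANOG itself runs from 15.85 to 19.89 TPM.

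The other copies were listed near 0. Of 32 genes named as copies of the regulators or overlapping one, only NANOGP8 averaged 1 TPM or more, and 24 were listed at 0 in all 4 libraries. NANOGP1, a duplicate beside NANOG, was 0.31 to 0.92 TPM, and LIN28B-AS1, which is antisense to LIN28B, was 0.41 to 0.78 TPM. LIN28B itself was 0.88 to 1.05 TPM, and since the kit is not stated to keep the strand, reads of LIN28B and LIN28B-AS1 may not be told apart where they overlap. The copies of POU5F1 summed to at most 1.07 TPM, against at least 2163.82 TPM for POU5F1.

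Other genes of the undifferentiated state spanned a wide range of levels, with means from 0.065 TPM (DPPA3) to 3223 TPM (HMGA1). Of the 36 genes in this list, 32 passed the filter. None was called by limma at an adjusted p under 0.05, and 1 had an unadjusted p under 0.05, OTX2, with KO+OE lower, beside 5.33% of all genes tested. OTX2 missed that threshold when any 1 of the 4 libraries was left out. Without control replicate 1 the count was again 1, from ZSCAN10, and without each of the others it was 0. OTX2, a homeobox factor that is also an ectoderm marker, was 11.32 and 10.80 TPM (control) against 8.77 and 9.17 TPM (KO+OE). Its log2 fold change was -0.27 (CI -0.50 to -0.05, limma adjusted p = 0.928). UTF1, a chromatin factor of stem cells, was 13.7 ± 1.17 TPM (control) against 11.7 ± 0.219 TPM (KO+OE). Over the list the median log2 fold change was 0.0006, and the most abundant genes were HMGA1, with 3153.65 to 3303.65 TPM, and SALL2. ZFP42 (REX1), which the study treats as a pluripotency marker and measured in its H9 cells, was at most 0.16 TPM in every library. It was 0.16 and 0.13 TPM (control) against 0.12 and 0.07 TPM (KO+OE). The study followed its RNA by RT-qPCR and RNA sequencing and its protein by western blot. REX1 is given there as the gene whose expression changed most significantly after the edit. Why the values here were so low was not tested. KLF4 was 0.32 and 0.35 TPM (control) against 0.25 and 0.23 TPM (KO+OE). For both, KO+OE was lower without overlap, as for 19.6% of all genes tested. Both lay below the filter, were not tested and were picked for mention with their values known.

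The genes around LIN28 and let-7 were compared next. Of 20 genes, 15 were tested, and limma called 0 after adjustment and 0 at an unadjusted p under 0.05, beside 0.00812% and 5.33% of all genes tested. Their median log2 fold change was 0.0022. DROSHA, the nuclease that cuts the microRNA precursor from its transcript, was 12.8 ± 0.431 TPM (control) against 14.7 ± 0.863 TPM (KO+OE), a log2 fold change of 0.19 (CI -0.03 to 0.40). XPO5, which exports precursors from the nucleus, was 45.8 ± 2.32 and 41.7 ± 1.97 TPM (log2 fold change -0.13, CI -0.30 to 0.03). MYCN, a MYC family factor placed in the list as a let-7 target, was 37.91 and 37.40 TPM (control) against 41.54 and 40.87 TPM (KO+OE) (log2 fold change 0.13, CI -0.0016 to 0.26, limma adjusted p = 0.931). ARID3B, placed there likewise, was 75.94 to 80.01 TPM. The canonical transcript of MYCN held 0 matches of CTACCTC and that of ARID3B held 2. The enzymes that add uridines to let-7 precursors held by LIN28A were weakly listed, TUT4 at 0.64 to 1.89 TPM and TUT7 below the filter. TUT7 was 0.45 and 0.50 TPM (control) against 0.93 and 0.90 TPM (KO+OE), without overlap. Fitted without the filter, it had a log2 fold change of 0.38 (limma, unadjusted p = 0.0442, adjusted p = 0.873). In that fit, which covered more than the 12319 genes otherwise tested, 1314 genes had an unadjusted p under 0.05. DIS3L2, which degrades those precursors, was 9.45 to 10.43 TPM. DICER1, also below the filter, went the other way without overlap, with 1.14 and 1.07 TPM (control) against 0.92 and 0.72 TPM (KO+OE). Over all genes tested, KO+OE lay above control without overlap for 14.5% and below for 19.6%. Of the 3 host transcripts in the list, MIRLET7A1HG ran from 0.13 to 1.29 TPM, and MIRLET7BHG and MIR100HG were each at most 0.16 TPM. The genes from TUT4 on were picked for mention with their values known.

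The chromatin partners of SALL4 and PRDM14 were also compared. Of the 15 subunits of NuRD and PRC2 and the PRDM14 partner CBFA2T2, 14 were tested, and 0 passed either an adjusted or an unadjusted p of 0.05, beside 0.00812% and 5.33% of all genes tested. RBBP4, a histone chaperone of both complexes, was 60.4 ± 4.72 TPM (control) against 67.4 ± 0.184 TPM (KO+OE) (log2 fold change 0.16, CI -0.01 to 0.33). MBD3 was 178 ± 1.03 and 168 ± 11.3 TPM, GATAD2A was 45.9 ± 1.94 and 42.5 ± 0.396 TPM, and MTA1 was 121.50 to 123.89 TPM in all libraries. SUZ12, the PRC2 subunit that did not pass the filter, was 0.49 to 0.62 TPM, and it too was picked with its values known. RBBP4 had an unadjusted p under 0.05 without control replicate 1, and MBD3 without KO+OE replicate 2, each making the count 1. The median log2 fold change was 0.02.

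**Figure D5:**
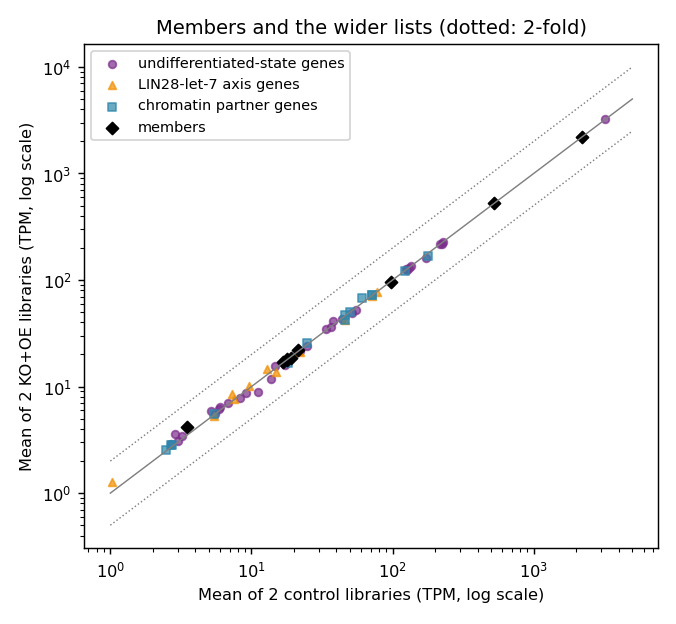
Mean TPM of the 2 KO+OE libraries against the mean of the 2 control libraries on log axes, for the 9 regulators tested (black) and the tested genes of the other lists, each gene drawn once; the solid line marks equal levels and the dotted lines 2-fold. All points lie between the dotted lines.

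Markers of differentiated cells were checked beside these results. Of 22 markers of the germ layers and of extraembryonic or later cells, 17 had a mean under 1 TPM and none of those exceeded 0.87 TPM in a library. SOX17, which defines endoderm, and CGA, a trophoblast hormone gene, were listed at 0 in all 4 libraries. The 5 above the filter were NES at 79.59 to 82.77 TPM, KRT7 at 17.32 to 20.61 TPM, OTX2, GATA6 and TBX6. GATA6, an endoderm and extraembryonic factor, was 5.96 and 8.39 TPM (control) against 4.35 and 7.31 TPM (KO+OE), with overlap. TBX6, a mesoderm factor, was 2.17 and 1.61 TPM (control) against 2.64 and 2.21 TPM (KO+OE). KO+OE was higher without overlap for TBX6 and KRT7, as for 14.5% of all genes tested. For OTX2 it was lower without overlap, as for 19.6%, and for NES and GATA6 the groups overlapped. GATA6 and TBX6 fall outside the naming rule and were added with their values known. The markers summed to 120 and 125 TPM in control and to 119 and 121 TPM in KO+OE, and their part in the values of the regulators was not tested.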

How the data were processed

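Per the labels, poly(A)+ RNA was selected with oligo(dT) beads, fragmented, reverse transcribed, ligated to adaptors, amplified and sequenced as paired reads of 150 bases. The submitters' processing notes name HISAT2, featureCounts, Subread, DESeq2 and hg38, without roles. The authors deposited 1 table with 1 column per library and 0 further columns of sample values. Its header names no unit, and the deposited values were read as TPM, because the columns hold decimals and sum to nearly the same total. It holds no read counts, so no count test was used. Groups and replicate numbers came from the sample titles. The columns are named only by c and f with a number, which were read as control and 3Flag (the study heads the latter KO+OE elsewhere), and the direction of every difference rests on that reading.

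Values were taken as log2(TPM + 1) for the 12319 genes averaging 1 TPM or more and compared with limma 3.58.1 in R 4.3.3 (lmFit, eBayes with a mean-dependent prior, group as the only term, two-sided), with Benjamini-Hochberg adjustment over all genes tested. LIN28B was fitted only without the filter. Ratios were tested by an exact permutation test (scipy 1.17.1). Simulated data with known changes were used to check the limma fit. Positions and promoters are from RefSeq on GRCh38.p14, and transcripts from GENCODE release 44 as lifted to GRCh37, aligned with Biopython 1.88. The genes and lists were chosen with earlier results of these data known. Named besides the 10 regulators and NUDT21 are, of each list, the 2 most abundant genes tested, the 3 of lowest p and any at an unadjusted p under 0.05, the 3 most abundant copies and markers, and the 2 genes nearest in level to POU5F1, SOX2 and NANOG. Those of POU5F1 are not reported here. Alternatives tried were other scalings, pseudocounts of 0.1 or 5, dropping the filter or raising it to 5 TPM, no mean-dependent prior, a replicate block and leaving out each library.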

Additional observations from a re-analysis of the deposited data

How the results depend on the processing

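None of the 9 regulators tested passed an adjusted p of 0.05 under any of the 13 alternatives, where 107 of 116 fold changes kept their sign and the lowest adjusted p was 0.873. Dropping or raising the filter, omitting the mean-dependent prior and adding the replicate block cannot change a fold change. The signs counted there agreed by design. POU5F1 turned to 0.0076 with quantile normalization and to 0.0015 without mitochondrial genes. Leaving out 1 library, with the lone library of a group assumed to vary like the other group, the log2 fold change ran from -0.15 to 0.16 for NANOG, from -0.050 to 0.085 for SALL4, from -0.034 to 0.11 for L1TD1, from -0.028 to 0.033 for PRDM14 and from -0.012 to 0.066 for NUDT21. The median of the regulators ran from -0.021 to 0.024, and was 0.016 after rescaling by median ratios and 0.017 without mitochondrial genes. The count of regulators with KO+OE above control without overlap was 1 with quantile normalization. The replicate numbers did not pair the libraries (correlation of deviations -0.0485), and with the replicate block 0 regulators passed. No sign could turn with the block, because each block held 1 library of each group. Of 156 fold changes of the named list genes, 146 kept their sign, again counting the fits that cannot change it. MTA1 turned to 0.0099 with median ratios, 0.015 with quantile normalization and 0.011 without mitochondrial genes. Leaving out 1 library gave -0.017 to 0.011 for MTA1, -0.035 to 0.039 for ARID3B, -0.029 to 0.038 for HMGA1 and -0.018 to 0.032 for SALL2. It gave -0.18 to 0.15 for the log2 ratio of POU5F1 to NANOG and -0.036 to 0.080 for that of LIN28A to LIN28B. The count at an unadjusted p under 0.05 among undifferentiated-state genes was 2 with a pseudocount of 5, 2 without the filter, 2 with median ratios, 2 with quantile normalization and 2 without mitochondrial genes (OTX2 and MYCN each time), and 0 to 1 when a library was left out. Among genes around LIN28 and let-7 it was 1 with a pseudocount of 5, 1 with median ratios, 1 with quantile normalization and 1 without mitochondrial genes (MYCN), and 2 without the filter (MYCN and TUT7). Among chromatin partners it was 1 with median ratios, 1 with quantile normalization and 1 without mitochondrial genes (RBBP4), and 0 to 1 when a library was left out. The causes were not tested. Over all genes fitted, 0 or 1 passed the adjusted threshold in each fit of all 4 libraries, and 412 to 1314 had an unadjusted p under 0.05. The 412 came with the filter at 5 TPM and the 1314 without the filter. Those fits covered fewer and more genes than 12319, so the range is not one of shares. Of the 12319 genes, 634 had such a p with a pseudocount of 5, 647 with median ratios and 649 with quantile normalization. With 2 libraries a group and no read counts, differences smaller than the intervals given were not detectable.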

Other observations

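The canonical transcripts of the 10 regulators ranged in GC content from 38.0% (LIN28B) to 57.8% (POU5F1), around a median of 51.8% over the genes tested. LIN28B, the lowest of the regulators in level, thus had the lowest GC content, and POU5F1, the highest in level, the highest. Over the 10 genes Spearman's rho between mean level and GC content was 0.333, and that between mean level and transcript length was -0.333. Over 12147 genes tested with a transcript the values were 0.275 and -0.192. These are descriptions across genes that share the same 4 libraries, and genes are not independent replicates.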
